A study of Mus musculus with 38 samples.

Results

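The 9 genes described here, of 23481 in the bulk table, encode basement membrane proteins and were followed as RNA in extraembryonic endoderm (XEN)-like cells. They were taken by name: Sparc, the type IV collagen chains Col4a1 and Col4a2, the laminin chains Lama1, Lamb1 and Lamc1, the nidogens Nid1 and Nid2, and the perlecan gene Hspg2. All cells were of E14, a mouse embryonic stem cell (mESC) line. mESCs were grown without feeders in 2i/L, a medium with inhibitors of MEK and GSK3 and the cytokine LIF that keeps them pluripotent, and were differentiated for up to 96 h in N2B27 medium with 0.25 µM all-trans retinoic acid (RA). The 38 samples of the series comprised 25 bulk RNA libraries, 9 plates of single cells measured by SCRB-seq and 4 sets of single cells measured by SMART-seq2. In bulk, mESCs in 2i/L were sequenced in 2 libraries and each of the 9 later times of the time course in 1. Cells sorted at 96 h as ectoderm-like (PDGFRA-/CD24+) or XEN-like (PDGFRA+/CD24-) were sequenced as 2 biological replicates each. Gated populations were sequenced once each, namely 4 quartiles of CD24 signal among PDGFRA- cells at 48 h, 3 terciles of it among PDGFRA- cells at 72 h, and PDGFRA+/CD24- cells at 72 h. The sorted ectoderm-like cells after 5 passages (P5) and the sorted XEN-like cells after 3 weeks of further culture were also sequenced once each. For that culture the study's methods describe N2B27 with EGF and FGF2 and dishes coated with poly-D-lysine and laminin, and XEN-like cells were kept as floating aggregates in uncoated dishes. Gates were set against the signal of undifferentiated mESCs.

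The basement membrane is a thin sheet of extracellular matrix on which epithelia rest. Laminin, a heterotrimer of an α, a β and a γ chain, self-assembles on the cell surface, and type IV collagen, a heterotrimer whose most common form joins α1 and α2 chains, forms a second network. Nidogens and the heparan sulfate proteoglycan perlecan bridge these networks, and Sparc is a matrix glycoprotein that binds collagen. In the early mouse embryo the parietal endoderm lays down Reichert's membrane, a thick basement membrane rich in laminin with α1, β1 and γ1 chains and in type IV collagen, and XEN cells in culture resemble that lineage.

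Col4a1 and Col4a2 lie head to head on chromosome 8 of GRCm38. In the GENCODE M21 annotation Col4a1 spans 11198423 to 11312826 on the minus strand and Col4a2 spans 11312805 to 11449287 on the plus strand, so that their 5′ ends overlap by 22 bases. Sparc spans 55394500 to 55423183 on chromosome 11 (minus strand), Lamb1 31265234 to 31329644 on chromosome 12 (plus strand) and Lamc1 153218922 to 153332786 on chromosome 1 (minus strand). Lama1 spans 67697259 to 67822647 on chromosome 17, Nid1 13437551 to 13512269 on chromosome 13, Nid2 19751265 to 19811787 on chromosome 14 and Hspg2 137468769 to 137570630 on chromosome 4, all on the plus strand. The collagen pair is thus the only one among the members that shares a locus.

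Promoter windows of 300 bases, from 250 bases before to 50 after the start site, were taken from RefSeq (GRCm38.p6) for the 6 members with an entry. The windows of the collagen pair are shown because they are cut from the same stretch of DNA on opposite strands. The Lamb1 window is shown beside them because Lamb1 is the laminin chain with the same onset as the collagen pair in the time course, as described below. In the collagen windows capitals mark the 78 bases they share, chr8:11312777-11312854, read from the minus strand for Col4a1 and from the plus strand for Col4a2. In the Lamb1 window, chr12:31265043-31265342 on the plus strand, capitals mark GGGCGG and CCAAT on either strand.
Col4a1: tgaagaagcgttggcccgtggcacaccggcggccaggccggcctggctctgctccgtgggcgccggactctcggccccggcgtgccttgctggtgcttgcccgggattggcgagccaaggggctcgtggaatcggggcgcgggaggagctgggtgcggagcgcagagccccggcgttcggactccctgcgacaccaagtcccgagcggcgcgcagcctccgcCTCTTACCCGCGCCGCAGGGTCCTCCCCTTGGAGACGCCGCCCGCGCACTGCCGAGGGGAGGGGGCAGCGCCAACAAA
Col4a2: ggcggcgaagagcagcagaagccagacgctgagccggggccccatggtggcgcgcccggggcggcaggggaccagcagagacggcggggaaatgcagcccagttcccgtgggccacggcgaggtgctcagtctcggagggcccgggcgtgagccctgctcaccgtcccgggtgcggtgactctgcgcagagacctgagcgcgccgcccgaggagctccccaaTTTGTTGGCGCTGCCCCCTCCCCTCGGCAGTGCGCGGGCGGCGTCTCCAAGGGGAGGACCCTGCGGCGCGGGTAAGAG
Lamb1: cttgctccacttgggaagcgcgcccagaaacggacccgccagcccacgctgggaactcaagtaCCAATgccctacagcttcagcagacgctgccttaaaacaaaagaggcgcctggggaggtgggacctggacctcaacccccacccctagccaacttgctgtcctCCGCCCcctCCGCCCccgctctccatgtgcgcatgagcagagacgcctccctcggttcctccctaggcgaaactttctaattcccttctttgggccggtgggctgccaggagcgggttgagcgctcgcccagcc
GC content was 74% in the Col4a1 window, 73.7% in that of Col4a2, 63.7% in that of Lamb1, 64.7% in that of Nid1, 70.3% in that of Hspg2 and 55.3% in that of Sparc, against a median of 52.7% over the 32851 windows in the table. The RefSeq start site of Sparc, 55420080, lies inside its GENCODE span, whose 5′ end is at 55423183. The Sparc window therefore does not cover that 5′ end. GGGCGG, the core of a GC box, was found on either strand in 5 of the 6 windows, with 5 matches in that of Hspg2, 3 in that of Col4a2, 2 in that of Lamb1 and 1 each in those of Col4a1 and Nid1, and in 35.7% of all windows. CCAAT was found once each in those of Col4a1, Col4a2, Lamb1 and Nid1 and in 37.4% of all windows. TATAAA, the core of a TATA box, had no match in the 6 windows and was found in 13.6% of all windows. Nor did GATAA, the core bound by GATA factors (25.4% of all windows), ACAAT, part of the site of SOX factors (31% of all windows), or AGGTCA, a site of nuclear receptors (16.3% of all windows), on either strand.

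Bulk libraries held 1063809 to 2459424 unique molecular identifiers (UMIs). A UMI is a random tag read with the 3′ end of an RNA, so that copies of 1 molecule are counted once. Values are given as UMIs of a gene per 1e6 UMIs of the library (CPM), and intervals given with a single library or a ratio are exact 95% intervals that cover counting error only. Of 7 XEN markers that are not members (Dab2, Gata4, Gata6, Sox17, Pdgfra, Sox7 and Foxa2), the summed level was 1887 and 1432 CPM in the sorted XEN-like libraries and 6.12 and 3.92 CPM in the mESC libraries, and all 7 had counts in each sorted library. In the sorted ectoderm-like libraries it was 68.4 CPM in replicate 1 and 384 CPM in replicate 2, so the ectoderm-like replicates differed in XEN marker RNA. The summed level of 9 ectoderm markers was 2729 and 2578 CPM in the ectoderm-like and 552 and 280 CPM in the XEN-like libraries. The XEN-like libraries also held 6230 and 4495 CPM of 6 pluripotency markers (Zfp42, Pou5f1, Klf4, Dppa5a, Esrrb and Nanog), against 725 and 371.5 CPM in the ectoderm-like and 12662 and 17242 CPM in the mESC libraries. In bulk, fewer cells of a type and less RNA per cell cannot be told apart.

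In mESCs all 9 members had counts in bulk. Sparc, Lamc1, Nid1 and Nid2 stood at 220 and 127 CPM, 24.5 and 30.04 CPM, 34.1 and 35.3 CPM, and 22.7 and 40.9 CPM in the 2 mESC libraries. Lama1 was at 12.2 and 19.6 CPM, Lamb1 at 7.87 and 8.71 CPM, Col4a1 at 7.44 and 4.35 CPM, Col4a2 at 2.62 and 3.05 CPM and Hspg2 at 0.875 and 1.74 CPM. UMIs of 3′ ends are not scaled to length, so these values are compared between libraries and not between genes.

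SMART-seq2 covers whole transcripts in single cells, and its RPKM values, reads scaled to the length of the transcript and to the reads of the cell, allow genes to be set beside each other. At 0 h, with 82 cells, Nid2 was above 1 RPKM in 100% of cells, Sparc and Lamc1 in 98.8% each, Nid1 in 95.1%, Hspg2 in 84.1%, Lama1 in 59.8% and Lamb1 in 9.76%. Neither Col4a1 nor Col4a2 exceeded 1 RPKM in any of the 82 cells, which allows a share of up to 3.66%. mESCs therefore held RNA for the γ1 chain of laminin and for both nidogens in nearly every cell, RNA for the β1 chain in few cells, and RNA for the α1 and α2 chains of type IV collagen in no cell at this threshold.

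Along the time course the members differed in onset. Onset was taken as the first time from which a member stayed at 2 or more times the higher mESC library. By this rule Col4a1, Col4a2 and Lamb1 had an onset at 36 h, Lama1 at 48 h, Sparc and Lamc1 at 60 h, and Nid1 and Hspg2 at 96 h, whereas Nid2 had none. With 3 times in place of 2, these onsets were 12 h later for Sparc, the collagen and the laminin genes, in the same order. At 36 h Col4a2 rested on 11 UMIs. Its interval, 3.32 to 11.9 CPM, overlapped that of the higher mESC library, 1.23 to 6.28 CPM from 7 UMIs. Of 5379 genes with 50 counts in their largest library, 14.5% had an onset between 36 h and 96 h.

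The 3 genes with the earliest onset were the 3 that exceeded 1 RPKM in the fewest SMART-seq2 cells at 0 h. Onset is a multiple of a gene's own mESC level, so a low level there favours an early onset. The link is thus partly set by the rule. Lamb1, which encodes the laminin β1 chain, was at 8.47 CPM at 24 h, 22.4 at 36 h, 85.8 at 48 h, 136 at 60 h, 343 at 72 h, 604 at 84 h and 1274 at 96 h. Col4a1 was at 11.5, 16.3, 40.3, 152, 424, 748 and 1563 CPM at the same times. Col4a2, its partner, was at 3.99, 6.66, 15.5, 52.2, 116, 219 and 449 CPM. At 96 h these genes stood 154-fold (Lamb1), 265-fold (Col4a1) and 158-fold (Col4a2) above the mean of the mESC libraries.

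Lama1, which encodes the laminin α1 chain, stayed between 8.47 and 10.8 CPM from 6 h to 36 h, reached 40.7 CPM at 48 h and ended 57.7-fold above mESCs at 918 CPM. Sparc was at 220 and 127 CPM in the mESC libraries, at 129 CPM at 24 h and at 215 CPM at 48 h, and reached 6201 CPM at 96 h, 35.7-fold above the mESC mean. Lamc1, the laminin γ1 gene, was lowest at 6 h with 18.1 CPM and reached 616 CPM, a 22.6-fold rise. The 6 genes thus differed in onset by up to 24 h. The midpoint between the mESC mean and the 96 h level was placed by linear interpolation between the libraries at 72, 84 and 96 h. It fell between 83.4 h for Sparc and 85.3 h for Lama1. No time between these libraries was measured, so the closeness of the midpoints is partly set by the sampling and is not read as joint timing. Each time is 1 culture, so the order of these midpoints has no replicate check.

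The nidogens took another course. Nid1 was at 34.1 and 35.3 CPM in mESCs, at 5.48 CPM at 24 h and at 3.03 CPM at 36 h, and was above both mESC libraries only from 84 h on, with 37.9 CPM, to end at 73.8 CPM, 2.13-fold above the mESC mean. Nid2 was lowest at 36 h, with 11.5 CPM, and ended at 60.0 CPM, 1.88-fold above the mean. Hspg2 had at most 4 UMIs at any time before 96 h, where it had 20 UMIs (10.3 CPM). Nidogens bind the laminin γ1 chain, and Lamc1, its gene, stayed between 18.1 and 30.3 CPM from 6 h to 36 h.

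**Figure D1:**
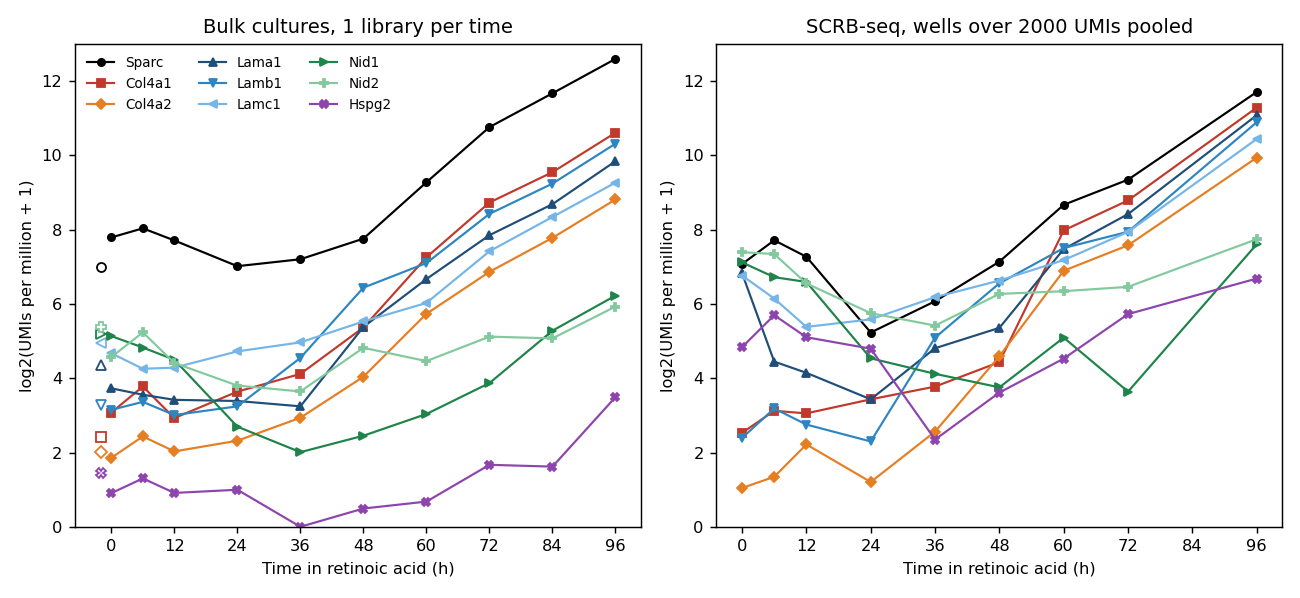
Levels of the 9 members against time in RA, as log2 of CPM plus 1, in bulk cultures (left, 1 library per time, open symbols for the second mESC library) and in pooled SCRB-seq wells with more than 2000 UMIs (right). Sparc, the collagen and the laminin genes climb together from 48 h on, while Nid1 is at its lowest, 3.03 CPM, at 36 h in bulk.

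Taken as a share of the library, the 9 members held 0.0333% and 0.0271% of the UMIs of the mESC libraries. Their share was 0.0207% after 24 h of RA and rose over 0.307% at 72 h to 1.12% at 96 h. In sorted cells the share was 1.04% and 0.537% in the XEN-like libraries and 0.0464% and 0.145% in the ectoderm-like libraries. The long-term XEN-like culture held 0.952% and the ectoderm-like culture 0.231%. The long-term XEN-like culture thus lay between the sorted XEN-like replicates, and the ectoderm-like culture above both sorted ectoderm-like replicates.

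Which of these genes separate XEN-like from ectoderm-like cells at 96 h was tested in the 2 sorted groups. Of the 9 members 8 passed the filter on low counts, and 7 of these were higher in XEN-like cells at an adjusted p under 0.05 in edgeR's quasi-likelihood test with Benjamini-Hochberg adjustment over 8945 genes. Of all genes tested, 6.98% were higher and 5.71% lower in that comparison. The median log2 difference of the 8 members was 3.21, and that of all genes tested was -0.06. All 8 had both XEN-like libraries above both ectoderm-like libraries, as did 29.8% of genes with 50 counts. With 2 against 2 libraries an exact permutation test cannot go below p = 0.33.

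Sparc, the collagen-binding glycoprotein gene, was at 5454 and 3414 CPM in the XEN-like libraries and at 228 and 935 CPM in the ectoderm-like libraries. All XEN-like values lay above all ectoderm-like values, a 7.95-fold difference (log2 2.99, SE 0.55, edgeR adjusted p = 0.00552). Without ectoderm-like replicate 2 the log2 difference was 4.48, and without ectoderm-like replicate 1 it was 2.31, both past the threshold.

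The laminin chains differed more than 10-fold in the fit. Lama1 was at 1085 and 401 CPM in XEN-like cells and at 28.3 and 73 CPM in ectoderm-like cells, a 15.3-fold difference (log2 3.93, SE 0.52, edgeR adjusted p = 0.00137). Lamb1 was at 1366 and 855 CPM against 56.1 and 161 CPM, a 10.8-fold difference (log2 3.43, SE 0.45, edgeR adjusted p = 0.00121). Lamc1 was at 776 and 297 CPM against 33.3 and 47.2 CPM, a 14-fold difference (log2 3.80, SE 0.42, edgeR adjusted p = 0.000696). The groups did not overlap for any of the 3 chains. Without ectoderm-like replicate 2 the log2 differences were 4.90 for Lama1, 4.51 for Lamb1 and 4.20 for Lamc1. Without XEN-like replicate 1 that of Lama1 was 3.21 and that of Lamc1 was 3.12, and without ectoderm-like replicate 1 that of Lamb1 was 2.85, all still past the threshold.

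For type IV collagen the groups were apart as well, but the spread within groups was wide. Col4a1 was at 1208 and 236 CPM in XEN-like cells and at 61.7 and 158 CPM in ectoderm-like cells, a 6.71-fold difference (log2 2.75, SE 0.62, edgeR adjusted p = 0.0141). Col4a2 was at 353 and 81.1 CPM against 22.2 and 52.3 CPM, a 6.05-fold difference (log2 2.60, SE 0.57, edgeR adjusted p = 0.0130). XEN-like replicate 2 and ectoderm-like replicate 2 lay close to each other for both genes. Without XEN-like replicate 1 neither difference passed (log2 1.32 with edgeR adjusted p = 0.166 for Col4a1 and log2 1.35 with adjusted p = 0.149 for Col4a2). Without ectoderm-like replicate 1 the log2 differences were 2.22 (edgeR adjusted p = 0.163) and 2.10 (adjusted p = 0.155). Without ectoderm-like replicate 2 they were 3.72 and 3.47, and without XEN-like replicate 2 they were 3.44 and 3.24. DESeq2 gave Col4a1 an adjusted p of 0.0768.

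Of the genes that bridge the networks, Nid1 passed the test and Nid2 did not. Nid1 was at 86.3 and 50.1 CPM in XEN-like cells and at 5.56 and 7.75 CPM in ectoderm-like cells, a 10.9-fold difference (log2 3.45, SE 0.39, edgeR adjusted p = 0.000854). Nid2 was at 48.8 and 33.7 CPM against 26.7 and 12.9 CPM, a log2 difference of 1.16 (SE 0.42) that did not pass (edgeR adjusted p = 0.100). It did pass without mESC replicate 1 (adjusted p = 0.0484) or without mESC replicate 2 (adjusted p = 0.0496). Hspg2, at 14.7 and 1.82 CPM in XEN-like cells (29 and 2 UMIs) and at 1.67 and 1.94 CPM in ectoderm-like cells (3 UMIs each), was too low to be tested.

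Against mESCs, 6 of the 8 tested members were higher in sorted XEN-like cells, where 12.3% of all genes tested were higher and 10.5% lower. They were Lamb1 (114-fold, log2 6.83, SE 0.55, edgeR adjusted p = 3.05e-05), Col4a1 (101-fold, log2 6.66, SE 0.79, adjusted p = 0.000190), Col4a2 (63.1-fold), Lama1 (39.1-fold), Sparc (22-fold) and Lamc1 (16.6-fold). Both nidogens were not called. The log2 difference was 0.76 (SE 0.33, edgeR adjusted p = 0.121) for Nid1 and 0.16 (SE 0.40, adjusted p = 0.812) for Nid2. Nid1 was at 86.3 and 50.1 CPM in XEN-like cells against 34.1 and 35.3 CPM in mESCs, so the groups did not overlap, and Nid2 overlapped. Like Nid1, the 6 pluripotency markers had their lowest summed level in ectoderm-like cells, and 4 were called higher in XEN-like than in ectoderm-like cells. Unlike Nid1, all 6 were called lower in XEN-like cells than in mESCs (median log2 difference -2.33). The part of undifferentiated cells in the XEN-like level of Nid1 was not tested. Without XEN-like replicate 1 the log2 difference of Col4a1 from mESCs was 5.25, that of Col4a2 4.75, that of Lama1 4.59 and that of Lamc1 3.38, and without XEN-like replicate 2 those of Col4a1 and Col4a2 were 7.35 and 6.61, all past the threshold.

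In ectoderm-like cells 3 members were higher than in mESCs and 1 was lower, where 9.82% of all genes tested were higher and 9.27% lower. Col4a1 was 15.1-fold higher (log2 3.92, SE 0.74, edgeR adjusted p = 0.00356), Lamb1 10.6-fold (log2 3.40, SE 0.50, adjusted p = 0.000837) and Col4a2 10.4-fold (log2 3.38, SE 0.74, adjusted p = 0.00777). These are again the 3 chains with the fewest SMART-seq2 cells above 1 RPKM at 0 h. Here too the fold is taken over a low mESC level, which favours a large fold. Nid1 was 6.46-fold lower (log2 -2.69, SE 0.39, edgeR adjusted p = 0.000810), so it was low in ectoderm-like cells and not in the 2 other groups. Sparc (log2 1.47), Lama1 (1.36), Lamc1 (0.25) and Nid2 (-1.0) were not called. Without ectoderm-like replicate 2 Col4a2 was no longer called (log2 2.58, edgeR adjusted p = 0.0917), Col4a1 stood at log2 3.01 (adjusted p = 0.0477), and Lamb1 at 2.38 (adjusted p = 0.00566). Without ectoderm-like replicate 1, Col4a1 stood at log2 4.51 and Lamb1 at 4.04, and Sparc and Lama1 were called as well (adjusted p = 0.00452 and adjusted p = 0.0422), and without mESC replicate 1 Nid2 was called lower (log2 -1.41, adjusted p = 0.0382). The 3 comparisons share libraries and are not independent of each other.

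Ectoderm-like replicate 2, with more XEN marker RNA, was also the higher one for most members. As a percentage of the XEN-like mean, the ectoderm-like replicates 1 and 2 held 2.76% and 21.8% for Dab2 and 2.33% and 25.7% for Pdgfra, 3.70% and 25.1% for Gata4, 5.12% and 9.19% for Gata6 and 8.70% and 29.9% for Sox17, none of them a member. They held 5.15% and 21.1% for Sparc, 8.54% and 21.9% for Col4a1, 10.2% and 24.1% for Col4a2, 5.05% and 14.5% for Lamb1 and 3.81% and 9.82% for Lama1. For Lamc1 the values were 6.21% and 8.79%, for Nid1 8.14% and 11.4% and for Nid2 64.7% and 31.3%. Of the other XEN markers, Foxa2 was at 12.8 and 28.4 CPM in ectoderm-like and 32.5 and 21.9 CPM in XEN-like cells, so the groups overlapped. Sox7 was at 0.556 and 3.88 CPM against 48.3 and 29.2 CPM. The part of XEN marker RNA in the ectoderm-like levels was not tested.

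**Figure D2:**
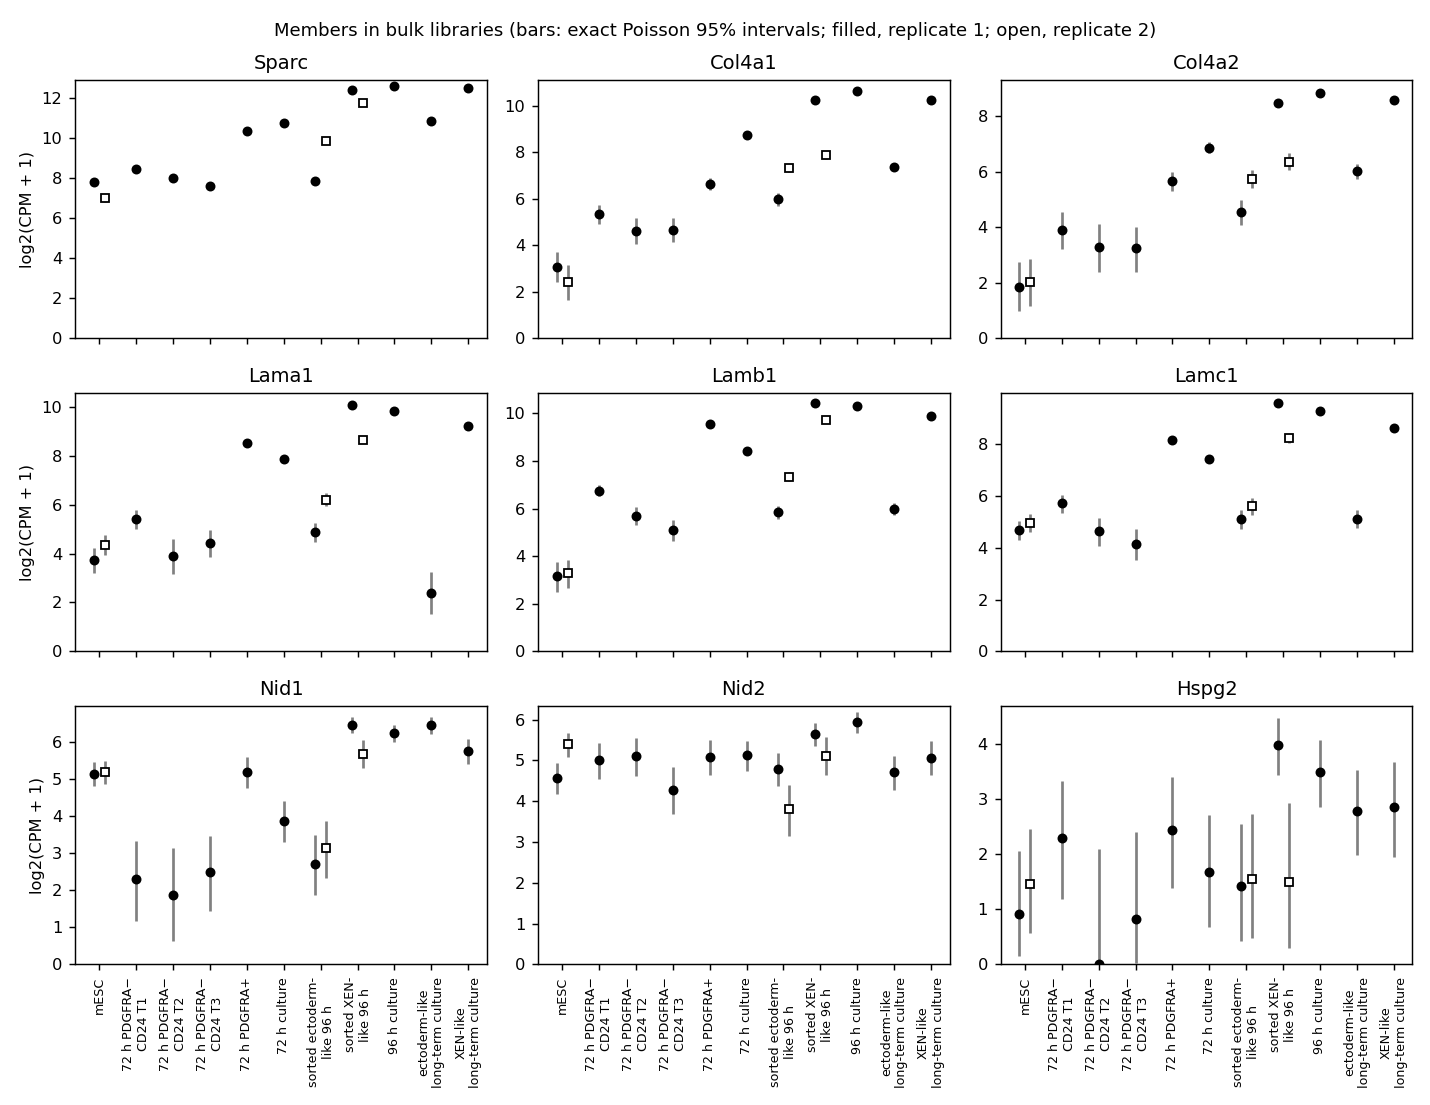
Level of each member, as log2 of CPM plus 1, in bulk libraries of mESCs, 72 h gates and culture, sorted 96 h cells, 96 h culture and long-term cultures, with filled circles for replicate 1, open squares for replicate 2 and bars for exact Poisson 95% intervals. Col4a1 and Col4a2 differ more between the XEN-like replicates than Sparc, Lamb1 or the nidogens do, and Lama1 is lowest in the ectoderm-like long-term culture.

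The XEN-like replicates themselves differed in the members by unequal factors. Replicate 1 over replicate 2 was 5.12 (interval 4.5 to 5.84) for Col4a1 and 4.36 (3.49 to 5.50) for Col4a2, 2.71 for Lama1 and 2.61 for Lamc1, and between 1.45 and 1.72 for Nid2, Sparc, Lamb1 and Nid1. Of 3922 genes with 50 counts, 9.03% had a ratio over 2 and 1.25% a ratio over 4, so the collagen pair was among the genes with the widest gap between these replicates. The 7 XEN markers that are not members lay between 1.00 (Pdgfra) and 1.65 (Sox7), below the collagen pair, Lama1 and Lamc1. Dab2 was at 1.33, and Gata6 (1.62) and Sox7 lay in the range of Nid2, Sparc, Lamb1 and Nid1. P4ha1 and P4ha2, catalytic subunits of the enzyme that hydroxylates collagen chains, were at 1.02 and 0.994. The collagen chaperone gene Serpinh1 was at 1.45 and the lysyl hydroxylase gene Plod3 at 1.51.

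The length of the transcript moved with this gap. Over all genes the median ratio of XEN-like replicate 1 to 2 was 0.990 for transcripts under 2000 bases, 1.1 from 2000 to below 4000, 1.27 from 4000 to below 6000, 1.48 from 6000 to below 8000 and 1.72 from 8000 bases on. Relative to the median of their length class, Nid1 (6091 bases) was at 1.17, Lamb1 (5784 bases) at 1.25, Lama1 (9526 bases) at 1.57 and Lamc1 (7622 bases) at 1.77. Col4a1 (6615 bases) remained at 3.47 and Col4a2 (6450 bases) at 2.95, with 3.65% and 5.02% of their class at or above them. The ectoderm-like replicates had a like order of medians, from 0.960 to 1.49, but there the ratios of Sparc, the collagen and the laminin genes all lay below 1. The part of transcript length in the members' differences was not tested beyond these values.

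**Figure D3:**
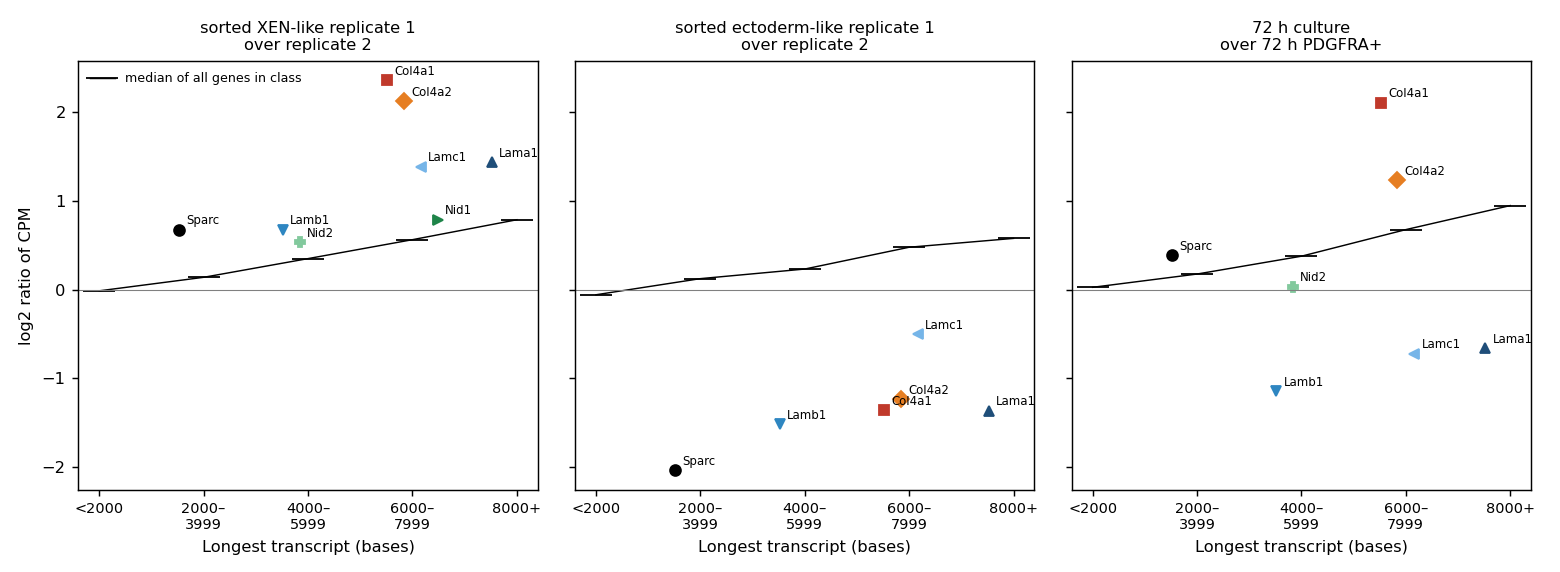
Log2 ratio of CPM between pairs of libraries for members with 50 counts, placed in the class of their longest annotated transcript (the place within a class has no meaning), and the median of all genes in that class (black line). The medians climb with length in each of the 3 pairs, Col4a1 and Col4a2 lie above them in the left and right panels, and the laminin genes lie below them in the right panel.

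Sparc and the chains of collagen and laminin were higher at 72 h in cells with PDGFRA on their surface than in cells without it. In PDGFRA+/CD24- cells Lamb1 was at 757 CPM, against 107, 51.2 and 33 CPM in the lowest, middle and highest tercile of CD24 among PDGFRA- cells. Lama1 was at 363 CPM against 42, 14.1 and 20.7 CPM, and Lamc1 at 281 CPM against 51.3, 23.8 and 16.9 CPM. Sparc was at 1329 CPM against 350, 258 and 193 CPM. The smallest ratios to any tercile were 7.06 for Lamb1, 8.65 for Lama1, 5.48 for Lamc1 and 3.80 for Sparc, all to the lowest tercile.

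The collagen pair was less steep. Col4a1 was at 98.5 CPM in PDGFRA+ cells and at 39.6, 23.8 and 24.6 CPM in the terciles, a smallest ratio of 2.49 (interval 1.79 to 3.50). Col4a2 was at 49.2 CPM against 14, 8.82 and 8.44 CPM, a smallest ratio of 3.52. All 6 members with 50 counts in the larger library were at least 2 times higher in PDGFRA+ cells than in every tercile, and 8.33% of genes were. Nid1 pointed the same way with 48 UMIs (35.3 CPM) against 3 to 6 UMIs, and Nid2 did not, with 33.1 CPM against 31.1, 33.5 and 18.4 CPM. The 6 pluripotency markers summed to 7143 CPM in PDGFRA+ cells and to 4573, 1949 and 1263 CPM in the terciles, and were at 12662 and 17242 CPM in mESCs, where the 6 members were lower than in PDGFRA+ cells.

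Among PDGFRA- cells at 72 h, the lowest CD24 tercile held at least 2 times as much Lama1, Lamb1 and Lamc1 as each of the other terciles, 3 of the 5 members with 50 counts, where 3.38% of genes did. Relative to Gapdh the smaller of the 2 ratios was 1.95 for Lama1, 1.996 for Lamb1 and 2.05 for Lamc1, so Lamc1 alone stayed past 2-fold. Its summed level of the 7 other XEN markers was 207 CPM, against 101 and 71.4 CPM in the other terciles and 1556 CPM in PDGFRA+ cells, and the part of such cells in these levels was not tested. At 48 h no member with 50 counts differed 2-fold between the lowest and the highest quartile of CD24 (2 members, with 2.1% of genes higher and 3.0% lower). Sparc was at 108, 99.3, 150 and 144 CPM from the lowest to the highest quartile and Lamb1 at 32.8, 29.99, 41.4 and 35.4 CPM.

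Whole cultures did not always lie between the gates. At 72 h Col4a1 was at 424 CPM in the whole culture, 4.30 times (3.58 to 5.21) the 98.5 CPM of the highest gate, PDGFRA+ cells, and Col4a2 at 116 CPM, 2.35 times (1.77 to 3.14). Of 7 members with 50 counts these 2 were at least 2 times above every gate, as were 1.36% of genes. Sparc was at 1.31 times the highest gate. With Gapdh as the reference instead of all UMIs, Col4a1 stood at 3.08 and Col4a2 at 1.68, no longer 2-fold, and Sparc at 0.935. The laminin genes lay between the gates, at 0.633 (Lama1), 0.453 (Lamb1) and 0.606 (Lamc1) times the PDGFRA+ level. The ratio of this culture to PDGFRA+ cells also climbed with transcript length, from a median of 1.02 under 2000 bases to 1.93 from 8000 bases on, and against their class Col4a1 stood at 2.70, Col4a2 at 1.47 and the laminin genes at 0.329 to 0.379. At 48 h the whole culture exceeded every PDGFRA- quartile at least 2-fold for Col4a1 (3.57), Lama1 (3.58) and Lamb1 (2.07), 3 of 6 members, where 3.34% of genes did. Relative to Gapdh the smallest ratios were 2.22, 1.91 and 1.29, so Col4a1 alone stayed past 2-fold. PDGFRA+ cells of 48 h were not analysed here. At 96 h the whole culture lay above all 4 sorted libraries for Sparc (1.14 times the highest), Col4a1 (1.29), Col4a2 (1.27) and Nid2 (1.23), as did 15.9% of genes. Relative to Gapdh, a metabolic gene taken as another reference, these ratios were 0.891, 1.01, 0.995 and 0.964, so 3 of the 4 fell below 1. By their definitions, no gate or sort held PDGFRA+/CD24+ cells, and the 96 h sorts held no PDGFRA-/CD24- cells. The part of such cells in the levels of the whole cultures was not tested. The gated libraries and the cultures are 1 library each.

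The proportions of partner chains were compared between libraries. Of the UMIs of the collagen pair, Col4a1 held between 66.7% (72 h PDGFRA+ cells) and 78.6% (72 h culture) in the 13 libraries with 50 or more UMIs of the pair, with a median of 74.4%. The share was 75.9% ± 2.1 (SD, n = 2) in XEN-like and 74.3% ± 1.2 (n = 2) in ectoderm-like cells, and these groups overlapped (exact permutation p = 0.667, two-sided). The mESC libraries had 23 and 17 UMIs of the pair and are not among the 13, with shares of 73.9% and 58.8%.

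Within laminin the proportions in sorted cells lay apart from those in mESCs. In mESCs Lamc1 held 53.2% ± 2.4 (SD, n = 2) and Lamb1 16.3% ± 1.9 of the UMIs of Lama1, Lamb1 and Lamc1. In XEN-like cells Lamb1 held 48.7% ± 9.0 and Lamc1 21.6% ± 3.5 (n = 2). In ectoderm-like cells the shares were 52.4% ± 6.8 and 22.5% ± 8.1. XEN-like and ectoderm-like cells overlapped in all 3 chains (exact permutation p = 0.667 to 1.0), and neither overlapped with mESCs for Lamb1 or Lamc1 (exact permutation p = 0.33, the smallest this design allows). The Lamb1 share was 19.5% at 24 h, 36.6% at 36 h and 50.0% at 48 h, and lay between 45.1% and 46.2% from 60 h on.

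The balance of collagen to laminin set the sorted groups apart without passing a test. Col4a1 and Col4a2 made up 41.6% and 42.8% of the UMIs of the 5 chains in ectoderm-like cells and 32.6% and 17% in XEN-like cells (exact permutation p = 0.33, groups not overlapping). mESCs had 18.4% and 11.3%. The lowest shares of the 25 libraries were 8.33% in the highest CD24 quartile at 48 h (9 of 108 UMIs) and 9.54% in PDGFRA+ cells at 72 h (201 of 2107 UMIs), and the share was 42.1% and 41.7% in the 72 h and 96 h cultures. It was 45.3% in the long-term XEN-like culture and 69.5% in the ectoderm-like one. Between the nidogens, Nid1 held 61.8% ± 2.9 (SD, n = 2) of the UMIs in XEN-like, 27.4% ± 14.3 in ectoderm-like and 53.1% ± 9.7 in mESC libraries.

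**Figure D4:**
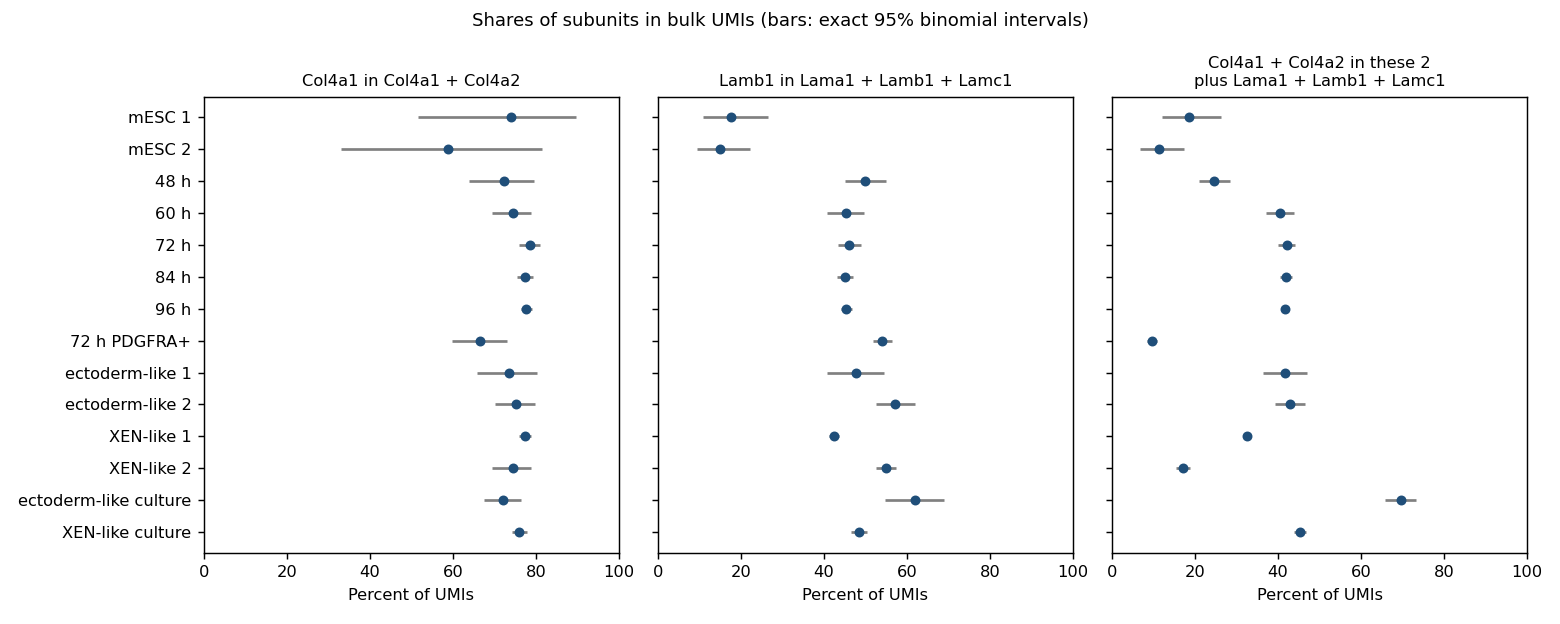
Percent of UMIs held by Col4a1 within the collagen pair, by Lamb1 within the laminin trimer and by the collagen pair within all 5 chains, per bulk library, with exact 95% binomial intervals. The share of Col4a1 lies between 66.7% and 78.6% in libraries with 50 or more UMIs of the pair, Lamb1 moves from under 20% in mESCs to over 40%, and the share of collagen is lowest in 72 h PDGFRA+ cells among those drawn.

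Sparc, the collagen and the laminin genes stayed high in XEN-like cells after 3 weeks of culture. Nid2 lay between the 2 mESC libraries (22.7 and 40.9 CPM), and Nid1 lay above them (34.1 and 35.3 CPM). Sparc was at 5889 CPM, Col4a1 at 1219, Col4a2 at 384, Lama1 at 602, Lamb1 at 937, Lamc1 at 397, Nid1 at 52.4 and Nid2 at 32.4 CPM. None of the 8 members with 50 counts was 2-fold above or below both sorted XEN-like libraries, where 17.5% of genes were above and 16% below. The sorted replicates themselves differed 5.12-fold in Col4a1 and 4.36-fold in Col4a2, so this rule could hardly call these genes. That culture differed from the sorted cells in other respects. It had 140 CPM of Dab2 against 1263 and 950 CPM, and its summed level of 5 visceral endoderm markers was 896 CPM against 268 and 169 CPM. Its 7 other XEN markers summed to 782 CPM against 1887 and 1432 CPM. Its 9 ectoderm markers summed to 1516 CPM against 552 and 280 CPM, and were at 1429 CPM in the ectoderm-like culture. The part of other cell types in its levels was not tested.

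In the ectoderm-like culture the members went separate ways. Lama1 was at 4.28 CPM (8 UMIs), below 28.3 and 73 CPM in the sorted ectoderm-like libraries, and Nid1 at 86.2 CPM, above 5.56 and 7.75 CPM. These were the 2 of 7 members that differed at least 2-fold from both sorted libraries, where 13.7% of genes were above and 8.4% below. Relative to Gapdh, Sparc and Col4a2 also passed 2-fold, with smaller ratios of 3.69 and 2.26. Sparc was at 1861 CPM, Col4a1 at 165, Col4a2 at 63.7, Lamb1 at 62.1 and Lamc1 at 33.7 CPM. The same library had 3873 CPM of 6 mesenchymal markers (Col1a1, Col1a2, Col3a1, Postn, Dcn and Lum, all with counts), where the other 24 libraries had 3.92 to 21.1 CPM, and their part in its levels was not tested. Between the cultures, 6 of 7 members were at least 2 times higher in the XEN-like one, by 3.16 (Sparc), 7.39 (Col4a1), 6.02 (Col4a2), 15.1 (Lamb1), 11.8 (Lamc1) and 140-fold (Lama1), where 19.5% of genes were. Nid1 was lower there, at 0.608 times the ectoderm-like culture.

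SCRB-seq counts UMIs in single cells sorted into the wells of a plate, 1 plate per time, and wells with more than 2000 UMIs were used. They numbered 282, 335, 285, 290, 334, 277, 273, 235 and 137 at 0, 6, 12, 24, 36, 48, 60, 72 and 96 h, of 384 wells each. The plates use the same 384 well names, and no pair of wells within a plate had identical counts. Cells are not replicates, so no test was run. Per 10000 UMIs, Sparc was at 1.34 at 0 h, 0.366 at 24 h, 4.06 at 60 h and 33.4 at 96 h. Col4a1 was at 0.0478 at 0 h, 0.206 at 48 h, 2.52 at 60 h and 25 at 96 h. Lamb1 was at 0.0425, 0.931, 1.81 and 19 at the same times. At 36 h Col4a1 was at 0.127 and Lamb1 at 0.332 per 10000 (31 and 81 UMIs).

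The ratio of 96 h to 0 h was 25 for Sparc, 19.3 for Lama1, 12.9 for Lamc1 and 3.69 for Hspg2. It rested on few UMIs at 0 h for Col4a1 (523, interval 275 to 1145, from 9 UMIs), Lamb1 (448, 227 to 1039, from 8 UMIs) and Col4a2 (924, 255 to 7646, from 2 UMIs). Nid1 and Nid2 were at 1.41 and 1.28. Of the 9 members 7 were at least 2 times higher at 96 h, where 14.5% of genes with 50 UMIs were. Of these 2 plates, Col4a1, Col4a2 and Lamb1 reached 50 UMIs only in that of 96 h, where they were high. Nid1 was at 1.38 at 0 h, 0.125 at 48 h and 0.115 per 10000 at 72 h, and Nid2 was at 1.67 at 0 h and 0.417 at 36 h, low at intermediate times as in bulk. Lama1 was at 1.13 at 0 h and 0.0979 at 24 h, a wider gap than in the bulk series, where Lama1 was at 12.2 and 19.6 CPM in mESCs and at 9.46 CPM at 24 h.

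After each cell was thinned to 2000 UMIs, Sparc was found in 93.4% of the 137 cells at 96 h, Col4a1 in 89.8%, Lama1 in 86.9%, Lamc1 in 76.6%, Lamb1 in 75.9% and Col4a2 in 60.6%. Before thinning the shares were 98.5%, 95.6%, 93.4%, 84.7%, 85.4% and 78.1%. At 0 h, where no SMART-seq2 cell exceeded 1 RPKM of Col4a1, 2.48% of cells had a Col4a1 UMI after thinning, with a median of 3938 UMIs per cell against 4028 at 96 h. The share at 96 h was above that at 0 h. Nid2, Hspg2 and Nid1 were found in 27.7%, 23.4% and 19% of cells at 96 h.

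Cells with UMIs of all 6 genes were counted. No cell had a UMI of all 6 of Sparc, Col4a1, Col4a2, Lama1, Lamb1 and Lamc1 up to 48 h. At 60 h 4 of 273 cells did (1.47%), at 72 h 12 of 235 (5.11%) and at 96 h 63 of 137 (46%). Finding all 6 depends on the level of each, and Col4a2 had 37 UMIs over 277 cells at 48 h, so nothing about joint expression is read from these counts. Cells with none of the 6 made up 82.1% at 24 h, 53.1% at 48 h, 18.3% at 72 h and 0 of 137 at 96 h, which allows up to 2.19%. In a cell at 96 h the 9 members held between 0.05% and 3.65% of the UMIs, with a median of 1.05%. At 72 h the median was 0.1% and the highest cell had 2.1%.

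Within a time, the correlation between UMI counts of the 6 genes across cells was higher at later times. The median Pearson correlation over the 15 pairs was 0.16 at 48 h, 0.33 at 60 h, 0.52 at 72 h and 0.53 at 96 h. At 96 h it ranged from 0.34 to 0.64 over the 15 pairs (137 cells), with 0.64 for Lama1 and Lamb1 and 0.49 for Col4a1 and Col4a2. With Sparc as the reference and 896 genes ranked, the 5 other genes took ranks 1 to 5 at 96 h. At 72 h, with 1612 genes ranked, they took ranks 1, 2, 3, 4 and 6. With each of the 6 genes as the reference in turn, the 5 others ranked between 1 and 22 at 96 h, the lowest being Col4a2 for Lama1. At 72 h they ranked between 1 and 38, with Col4a1 at rank 38 for Col4a2 and r = 0.23 between these partner chains. Correlations with Nid1, Nid2 and Hspg2 had medians of 0.17, 0.18 and 0.19 at 96 h, and those at 72 h were 0.31, -0.06 and 0.27. All cells of a time share a library and the counts of the nidogens and Hspg2 are sparse, so these values describe the plates. The 6 genes were sparse at 48 h as well. After thinning, Col4a2 was found in 3.25% of cells at 48 h and 60.6% at 96 h, and Lama1 in 6.14% and 86.9%. Sparse counts lower r, so higher r at later times cannot be told apart from higher levels. Later plates also hold XEN-like and ectoderm-like cells together.

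**Figure D5:**
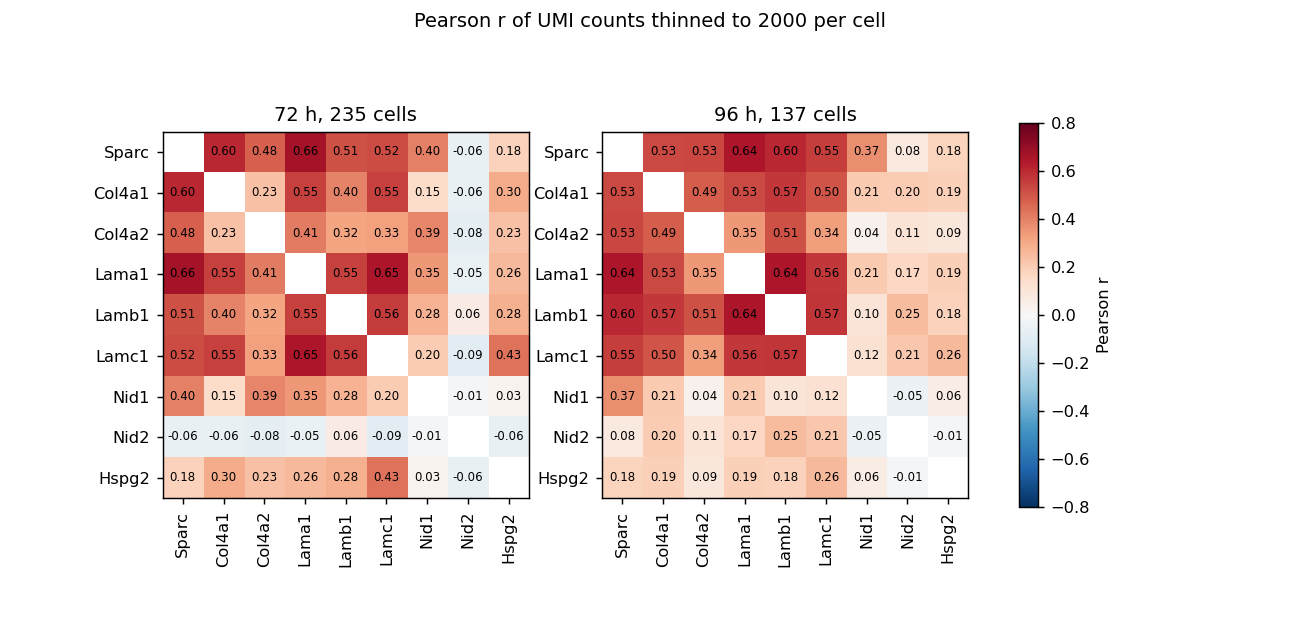
Pearson correlation between members over SCRB-seq cells thinned to 2000 UMIs, at 72 h (235 cells) and 96 h (137 cells), with colour and number giving r. Most pairs among Sparc, the collagen and the laminin genes have higher r than pairs with a nidogen or Hspg2, Col4a1 and Col4a2 stand at 0.23 at 72 h, and Nid2 lies near 0 with all others at 72 h.

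Cells with more UMIs of other XEN markers held more of the members, and cells in which no marker UMI was found also held member UMIs. At 96 h, 38 cells had no UMI of Dab2, Gata4, Gata6, Sox17 or Pdgfra after thinning, 29 had 1 and 70 had 2 or more. Sparc was at 16.8, 27.1 and 43.6 per 10000 in these cells, Col4a1 at 9.08, 16.4 and 33.6, Lama1 at 10.5, 12.9 and 29.1 and Lamb1 at 6.05, 8.97 and 26.7. At 72 h, with 174, 36 and 25 cells, Sparc was at 3.65, 7.78 and 21.8, Col4a1 at 3.05, 6.11 and 16.6 and Lamb1 at 1.49, 3.47 and 6.40. The cells without a marker UMI had 76.3% with a Col4a1 UMI at 96 h and 31.6% at 72 h. For comparison, 2.48% of cells had a Col4a1 UMI at 0 h. By the study's estimate SCRB-seq recovers only a small part of transcripts, so a cell without a marker UMI need not lack marker RNA.

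Subunit proportions were also taken from the single cells. Lamb1 held 1.89% of the UMIs of the laminin trimer at 0 h (8 of 423), 40.3% at 48 h and 34.8% at 96 h. Lama1 held 50.1% of the trimer at 0 h and 17.3% at 48 h. Of the collagen pair, Col4a1 held 47.1% at 48 h (33 of 70 UMIs, interval 35.1% to 59.4%), where the 48 h bulk culture had 72.3% (99 of 137 UMIs), so single cells and bulk differed there by more than counting error. At 60, 72 and 96 h it held 68.1%, 69.9% and 71.8% in single cells. The collagen pair held 2.53% of the UMIs of the 5 chains at 0 h, 15.9% at 48 h, 42.4% at 60 h and 38.9% at 96 h.

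In SMART-seq2 cells at 48 h the chains began to meet. Lamb1 was above 1 RPKM in 85.4% of 82 cells (interval 75.8% to 92.2%) against 9.76% (4.31% to 18.3%) at 0 h, Col4a1 in 41.5% and Col4a2 in 18.3%. Lamc1 was above it in 89%, Sparc in 96.3%, Nid2 in 85.4% and Lama1 in 59.8%. The shares of Nid1 and Hspg2 were lower than at 0 h, with 43.9% against 95.1% and 46.3% against 84.1%. All 3 laminin chains were above 1 RPKM in 7 of 82 cells (8.54%) at 0 h, 4 of 86 at 12 h, 6 of 89 at 24 h and 43 of 82 (52.4%) at 48 h. Both collagen chains were above it in 0, 0, 1 and 11 cells at these times, and at 48 h all 11 of those also had the 3 laminin chains. Cells with RNA for the whole laminin trimer were thus more frequent at 48 h than cells with both collagen chains, and of the 5 chains Lamb1 had the widest gap in share between 0 h and 48 h.

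The 11 cells with Pdgfra above 1 RPKM at 48 h had Col4a1 above 1 in 8 cells (72.7%, interval 39% to 94.0%) and Hspg2 in 9 (81.8%, 48.2% to 97.7%), against 26 (36.6%, 25.5% to 48.9%) and 29 (40.8%, 29.3% to 53.2%) of the other 71. Lamb1 was above 1 in all 11 and in 83.1% of the 71, and Nid1 in 45.5% and 43.7%. All cells came from 1 culture, and these intervals overlap.

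Mean RPKM values have to be read with care, because a decimal place was lost from part of the SMART-seq2 values: no value between 1 and 10 is given with 4 decimals, and 67.8% to 71% of the values above 0 lie between 10 and 100 with 3 decimals and may stand for values 10 times smaller. As listed, the mean at 0 h was 56.5 RPKM for Nid2, 54.7 for Sparc, 33.9 for Nid1, 28.7 for Hspg2, 27.6 for Lamc1, 24.6 for Lama1, 1.51 for Lamb1, 0.0200 for Col4a1 and 0 for Col4a2. With the doubtful values divided by 10, it was 13.5 for Nid2, 17.4 for Sparc, 5.43 for Nid1, 3.23 for Hspg2, 4.26 for Lamc1, 2.82 for Lama1 and 0.345 for Lamb1. In both readings the collagen chains and Lamb1 were the lowest members per length in mESCs. Before rescaling, a doubtful value divided by 10 is still 1 or more. The shares of cells above 1 RPKM are for values as listed, and were not computed for the other reading after rescaling. At each time 2414 to 2835 values written with a comma were set to 0.

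Other genes of the basement membrane, from lists chosen by role, moved less as a whole. Of 12 other laminin and type IV collagen chains only Lama5 had enough counts to be tested, and it was not called in XEN-like against ectoderm-like cells (log2 -2.10, SE 0.83, edgeR adjusted p = 0.128). Of 15 other components 6 were tested. Tinagl1, a matrix protein related to the tubulointerstitial nephritis antigen, was higher in XEN-like cells (38.1 and 54.7 CPM against 0.556 and 7.11 CPM, log2 3.73, edgeR adjusted p = 0.00518). Col18a1, the type XVIII collagen gene, was lower (3.56 and 3.65 CPM against 111 and 58.1 CPM, log2 -4.43, adjusted p = 0.000696), and so was Fras1 (log2 -2.97, adjusted p = 0.0193), whose protein anchors epithelial basement membranes. Of 10 receptor genes, among them integrin subunits and dystroglycan, 4 were tested, with a median log2 difference of -0.37.

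Of 7 genes that fold, modify, secrete or cross-link collagen, all were tested and 4 were higher in XEN-like than in ectoderm-like cells. The median log2 difference of the 7 was 1.87. They were P4ha2 (log2 3.49), P4ha1 (2.93), Serpinh1, the collagen chaperone Hsp47 (2.75), and Plod3, a lysyl hydroxylase (1.87). Serpinh1 was at 925 and 640 CPM in XEN-like and at 81.7 and 165 CPM in ectoderm-like cells. Of 9 genes of matrix turnover 4 were tested and 3 were higher, the inhibitors Timp2 (log2 2.48) and Timp1 (1.82) and the plasminogen activator Plat (1.33). Over these 5 lists 8 genes were higher and 2 lower, and without ectoderm-like replicate 1 only P4ha1, P4ha2, Serpinh1 and Tinagl1 were called higher. Fras1 was not called with DESeq2 or without any 1 of the 4 sorted libraries.

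Over the 25 bulk libraries, the 8 genes outside the list whose log2 levels followed the mean of the members most closely were Vcam1 (Pearson r = 0.95), Calu (0.95), Pdia3 (0.94), Erp29 (0.94), Txndc12 (0.94), Lrpap1 (0.94), Plod3 (0.94) and Ckap4 (0.93), of 5256 genes ranked. Vcam1 is a cell adhesion molecule, Calu, Pdia3, Erp29 and Txndc12 encode proteins of the endoplasmic reticulum and the secretory path, and Lrpap1 is a chaperone of lipoprotein receptors. By rank correlation 3 of these 8 were also among the first 8. The libraries share cultures and fates, so these values are a description. Among the members, r with their mean was 0.76 for Nid1 and 0.73 for Nid2 and between 0.90 and 0.97 for Sparc, the collagen and the laminin genes.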

How the data were processed

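Bulk and SCRB-seq values are UMI counts. Per the study's methods, the authors mapped reads to RefSeq transcripts of the mouse using BWA 0.7.4 and collapsed reads with the same UMI for a gene within a library or well. The deposited values are whole counts whose totals differ between libraries, and they were taken as not normalized. SMART-seq2 values are RPKM that the authors made with TopHat and Cuffnorm and deposited, from which depth can no longer be read. The members and lists were chosen with earlier results of these data known.

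Of the bulk genes, 2 with damaged values and 4 entries with repeated names were left out, which left 23475 genes. The 6 libraries of mESCs, sorted ectoderm-like and sorted XEN-like cells were fitted together with edgeR 4.0.16 in R 4.3.3 (TMM, filterByExpr, quasi-likelihood test, Benjamini-Hochberg adjustment, threshold 0.05). The biological coefficient of variation was 0.247. On simulated XEN-like and ectoderm-like libraries the fit recovered 60% of 100 genes changed 4-fold and 90% of 100 changed 8-fold, with 6 unchanged genes called (8468 genes). DESeq2 1.42.0 was an alternative. Groups of 1 library have no test, and calls between them needed a factor of 2 and 50 counts in the larger library. Replicates are those the labels number. Nothing in the sources used here says which steps they shared, and p-values measure the spread between these libraries.

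SCRB-seq wells had to hold more than 2000 UMIs and were thinned to 2000 UMIs for shares and correlations. RPKM of each cell were rescaled to the median sum found at 0 h. The genes named are the members, at most 4 a list with the largest change past the threshold, and the 8 most correlated genes. Some genes in the closing section were chosen after their values were seen. One gene of the lists is not reported here. Coordinates are those of GENCODE M21 on GRCm38. Other steps used Python 3.11.15 (matplotlib 3.10.9, pandas 2.3.3, numpy 2.4.6, scipy 1.17.1). Alternatives were DESeq2 and its size factors, no filter on low counts, leaving out each replicate, a replicate block, Gapdh as reference, other limits of UMIs, RPKM and onset, a second thinning and rank correlation.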

Additional observations from a re-analysis of the deposited data

How the results depend on the processing

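For the members, 215 of 232 single values kept their direction and their side of the threshold under the alternatives, 6 lost the call, 9 gained it and 2, neither of them called, changed sign: Nid2 in XEN-like cells against mESCs without mESC replicate 1 (log2 -0.24, and -0.24 to 0.67 over all libraries left out in turn) and Lamc1 in ectoderm-like cells against mESCs without ectoderm-like replicate 2 (log2 -0.080, and -0.080 to 0.56 likewise). The number of members higher in XEN-like than in ectoderm-like cells, 7 as reported, was 6 with DESeq2 and 9 with no filter on low counts, and ranged from 5 to 8 when 1 library was left out. The replicate numbers mark no shared step in the labels, and the correlation of the differences between replicates 1 and 2 over the 2 sorted groups was 0.308. With a replicate block on the 4 sorted libraries 8 members were higher (7 without it on the same libraries), Nid2 being added. For ectoderm-like cells against mESCs the number higher was 5 with no filter on low counts and 2 to 5 with 1 library left out, and the number lower 1 to 2. For the 5 other lists, the number higher in XEN-like than in ectoderm-like cells was 4 to 8 and the number lower 1 to 2 with 1 library left out, the number lower was 1 with DESeq2, and the number lower than in mESCs was 0 to 1 with 1 library left out. In SCRB-seq the members' percent of UMIs at 96 h was 1.37 in wells with more than 4000 UMIs against 1.28 as reported. With RPKM over 5 and doubtful values divided by 10, 1 member exceeded the limit in over 50% of cells at 0 h and 1 at 48 h, in place of 6 and 5. That alternative, the split by transcript length and the subunit shares with 1 library left out were added after the data were seen. With rank correlation 3 of the 8 most correlated genes were shared. The cause of these changes was not tested, apart from the number of libraries or genes that an alternative leaves. With 3 UMIs as the limit that a count of 0 allows, a gene absent from a bulk library may stand at up to 2.82 CPM in the shallowest, which limits what can be said of Hspg2.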

Other observations

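The long-term cultures held RNA of other matrix chains that sorted cells nearly lacked. These genes, taken from the same lists, were chosen after their values were seen, and each culture is 1 library. In the XEN-like culture Lama5, a laminin α chain, was at 24.8 CPM (36 UMIs) and Lamb3, a laminin β chain, at 8.97 CPM (13 UMIs). In the sorted XEN-like libraries Lama5 had 3 and 1 UMIs, and Lamb3 had 1 in each. Itgb4, a subunit of a laminin receptor, was at 26.2 CPM in the XEN-like culture against 2.54 and 0 CPM in sorted XEN-like cells. In the ectoderm-like culture, which held the mesenchymal markers, Col15a1 was at 24.6 CPM (46 UMIs), Lama4 at 16.1 CPM (30 UMIs) and Itga1 at 17.7 CPM (33 UMIs), and the sorted ectoderm-like libraries had at most 1 UMI of each. Mmp2, which degrades type IV collagen, was at 142 CPM in that culture, against 6.11 and 2.58 CPM in the sorted libraries.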
